A study of Homo sapiens with 6 samples.

Results

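The kinesins that work in mitosis were followed through HCT116 cells with and without knockdown of PLEK2, a pleckstrin family protein. The group held 10 genes of the 17047 in the expression table, found by their symbols: KIF14, KIF11, KIF15, KIF18A, KIF18B, KIF20A, KIF20B, KIF23, KIF2C and KIF4A. They were picked with the shift between the knockdown and control libraries in view, in particular the agreement of same-numbered pairs for KIF14. Their values in that comparison are therefore a description, given without a test. HCT116 is a human colorectal carcinoma line. The study asked which transcripts changed when PLEK2 was silenced with an shRNA in the pLKO.1 lentiviral vector. Poly(A) RNA was sequenced from 3 libraries with a non-targeting shRNA (shNC) and 3 with the PLEK2 shRNA, called PLEK2 shRNA 1, 2 and 3 here. The supplement lists 1 PLEK2 shRNA, so the loss of PLEK2 and other effects of that hairpin cannot be told apart. The interval between transduction and harvest was not given in the sources used here. Nothing says that the libraries came from separate cultures, so p-values measure the spread between these libraries, which may be technical.

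Kinesins are motors that hydrolyse ATP to move along microtubules or to take their ends apart. Those of mitosis push the spindle poles apart, align chromosomes, limit the growth of spindle microtubules and build the midzone, the overlap of antiparallel microtubules on which cytokinesis depends. Most are made late in the cell cycle, from promoters that the DREAM complex keeps silent in resting cells and that B-MYB and FOXM1, joined to the same MuvB core, turn on towards mitosis. The site for MuvB is called the cell cycle genes homology region (CHR). In bulk RNA, fewer cells in G2 and mitosis and less kinesin RNA per cell cannot be told apart.

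Promoter sequences are shown for the CHR, the feature these genes share that played no part in choosing them. RefSeq promoters on GRCh38.p14, from 250 bases before to 50 bases after the transcript start, were matched for all 10 genes. Where a gene had several promoters, the first listed was used, and matches in its others were not counted for it. TTTGAA, searched on both strands, was present in 8 of them, the exceptions being KIF20A and KIF2C. It was present in 15.2% of all 35116 promoters of the same length and in 9.36% of the promoters of genes tested here. The windows below give the match in capitals with 10 bases on either side, written in the direction of the motif.

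KIF14: aaggccgcaaTTTGAAtgggcgcccc
KIF11: ggcgcctcaaTTTGAAaaagagacag
KIF15: tggccgcaaaTTTGAAtttggcgctt
KIF18A: gtggcttgggTTTGAAtattgtggtt
KIF18B: gcccggctaaTTTGAAcgcaaggcgc
KIF20B: gccgccattgTTTGAAtttgaaaacg
KIF23: gattggcccgTTTGAAatgcgccagg
KIF4A: ccgggacggaTTTGAAacttggcggt

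The KIF14 window is at chr1:200620735-200620760 on the plus strand, opposite to the gene, and its motif covers bases 2 to 7 after the start site. Those of KIF11 (chr10:92593092-92593117, minus strand) and KIF15 (chr3:44761749-44761774, minus strand) also ran opposite to their genes. The KIF11 window lies within the gene span given below and not at the start of that span. The windows of KIF18A (chr11:28108151-28108176, minus strand), KIF18B (chr17:44947756-44947781, minus strand) and KIF20B (chr10:89701604-89701629, plus strand) ran in the direction of the gene. So did those of KIF23 (chr15:69414284-69414309, plus strand) and KIF4A (chrX:70290060-70290085, plus strand). KIF20B had 2 matches, the other one starting directly after the capitals. All 8 promoters had a match within 70 bases before or 50 bases after the start, as had 5.39% of all promoters. The CCAAT box, searched as CCAAT on both strands, was in 8 of the 10 promoters against 34.6% of all, and 7 held both motifs against 5.9% of all. TTCGAA, a variant of the CHR, was in 0 of the 10, and the E2F motif (TTTGGCGC or TTTCGCGC, both strands) was in 1, that of KIF15. The E2F match of KIF15 lies directly beside its CHR match. TTTGAA was in 13 of 19 promoters of spindle partners, 10 of 16 of other G2/M genes, 2 of 6 of other mitotic kinesins, 2 of 11 of the regulators of such promoters and 1 of 22 of non-mitotic kinesins. A match is a string of letters and was not tested as a binding site.

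The genes lie on 8 chromosomes in the GENCODE 44 annotation of GRCh38. The submitters' notes name another build, so these positions locate the genes and not the reads. KIF11 (chr10:92574105-92655395) and KIF20B (chr10:89701590-89774939) share an arm of chromosome 10 on the plus strand and KIF2C (chr1:44739818-44767767, plus strand) shares chromosome 1 with KIF14. KIF15 is at chr3:44761721-44873376, KIF20A at chr5:138178719-138187723, KIF23 at chr15:69414246-69448427 and KIF4A at chrX:70290104-70420886, all on the plus strand. KIF18A (chr11:28020619-28108156) and KIF18B (chr17:44924709-44947773) are on the minus strand. Their proteins run from 725 residues in KIF2C to 1820 in KIF20B.

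Library totals lay between 14377532 and 15602732 estimated counts, and 12959 genes, all 10 kinesins among them, passed the filter on low counts. Libraries of a group differed beyond counting error (chi-square per gene 2.97 to 19.35). PLEK2 read 86.0, 72.6 and 82.9 CPM (a gene's counts scaled to a common library total) with shNC and 16.02, 32.2 and 34.9 with the PLEK2 shRNA, a log2 difference of -1.57 (SE 0.17, edgeR's quasi-likelihood test with replicate number as a block, adjusted p = 0.00106). Without the block, edgeR did not call PLEK2 (adjusted p = 0.6843) unless PLEK2 shRNA replicate 1 was left out (log2 difference -1.26, adjusted p = 0.01055), while DESeq2's Wald test did (adjusted p = 5.086e-07). Epithelial markers summed to between 7534 and 8657 CPM with shNC and between 6259 and 8024 with the PLEK2 shRNA. Those of blood and endothelium stayed under 1.2 CPM, with CD3E and PECAM1 at 0 in some libraries. Fibroblast markers came to between 24.5 and 33.3 CPM, nearly all COL1A1. CDX1, PTPRC and DCN were not found by their symbols among the genes of the deposited data.

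KIF14, a motor of the midzone and midbody that binds PRC1 and citron kinase and serves the last step of cytokinesis, showed the lowest values with the PLEK2 shRNA relative to control. It read 49.4, 36.3 and 26.9 CPM in shNC libraries 1, 2 and 3. It read 32.2, 22.3 and 18.7 CPM in PLEK2 shRNA libraries 1, 2 and 3. Every PLEK2 shRNA library lay below the shNC library of its own number, while the groups overlapped, because PLEK2 shRNA 1 lay above shNC 3. The means were 37.5 ± 11.3 and 24.4 ± 6.98 CPM (SD, n = 3 each), the second being 65.0% of the first.

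The log2 ratio of PLEK2 shRNA to shNC for KIF14 was -0.62 in pair 1, -0.70 in pair 2 and -0.53 in pair 3. The 95% counting intervals of these ratios were -0.78 to -0.46, -0.90 to -0.50 and -0.75 to -0.31. These widths describe the counts behind each ratio, and since the gene was picked for these ratios nothing is read from where they lie. Behind them stood 758, 514 and 389 estimated counts with shNC and 506, 340 and 282 with the PLEK2 shRNA. PLEK2 itself had log2 ratios of -2.42, -1.17 and -1.25 in the same pairs. Whether the KIF14 ratios follow those of PLEK2 was not tested. Counting intervals cover counting error only.

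The fitted log2 difference of KIF14 was -0.62 both with and without the replicate number as a block, and 78 of the 12959 genes tested had a value as low or lower (0.602%). It rests on which libraries are compared when the numbers are ignored. Leaving out shNC replicate 1 gave -0.36, and leaving out PLEK2 shRNA replicate 1 gave -0.87. KIF14 is at chr1:200551497-200620751 on the minus strand of GRCh38, with 30 exons and a protein of 1648 residues, and no exon of another gene overlaps it on the opposite strand.

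**Figure D1:**
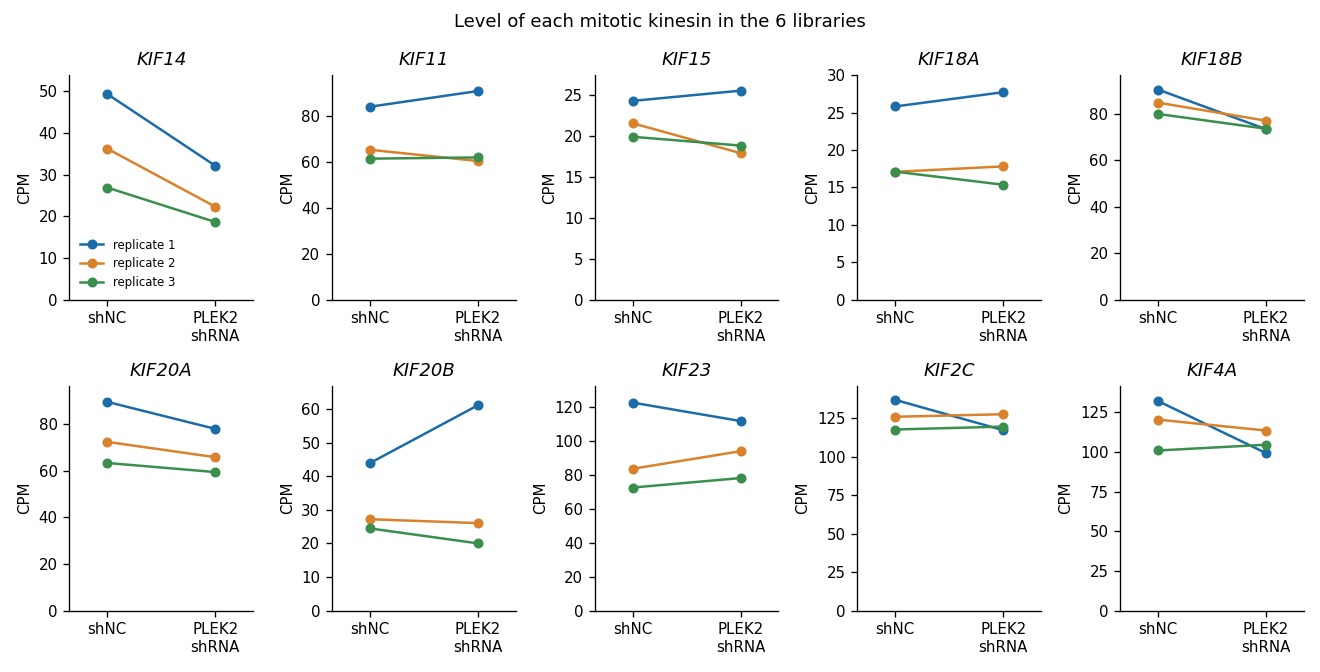
CPM of each mitotic kinesin (vertical axes from 0) in the shNC and PLEK2 shRNA libraries, with a line joining libraries of the same replicate number. The KIF14 lines slope down alike from 49.4, 36.3 and 26.9 to 32.2, 22.3 and 18.7 CPM, while those of KIF11, KIF18A or KIF23 part by replicate number and not by shRNA.

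KIF14 was also low relative to the other 9 kinesins of the same library. The CPM of those 9 genes summed to 750, 618 and 557 with shNC, and to 685, 600 and 551 with the PLEK2 shRNA. KIF14 amounted to 6.59%, 5.87% and 4.83% of that sum with shNC and to 4.70%, 3.72% and 3.38% with the PLEK2 shRNA. The KIF14 share was lower in each PLEK2 shRNA library than in any shNC library, although its CPM overlapped. The closest values were 4.70% in PLEK2 shRNA 1 and 4.83% in shNC 3. KIF14 was picked for its pair ratios and the sum of the other 9 changed less. The share therefore largely restates the KIF14 values above, and nothing further is read from it. The log2 change of that share was -0.49, -0.66 and -0.51 in pairs 1, 2 and 3, and that of the 9 genes' sum was -0.13, -0.04 and -0.02.

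The motors that build and hold the bipolar spindle showed no shared direction. KIF11 (Eg5) slides antiparallel microtubules apart to separate the poles, and KIF15 holds the poles apart beside it. KIF11 read 84.0, 65.3 and 61.4 CPM with shNC and 90.85, 60.4 and 62.0 with the PLEK2 shRNA. KIF15 read 24.2, 21.5 and 19.9 CPM with shNC and 25.5, 17.9 and 18.8 with the PLEK2 shRNA. In both genes replicate 1 was the highest library of its group, and the groups overlapped. Their pair ratios lay between -0.11 and 0.11 for KIF11 and between -0.27 and 0.07 for KIF15 on the log2 scale.

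The motors that act on microtubule plus ends differed from each other. KIF18A damps the movements of chromosomes at the metaphase plate, KIF18B limits astral microtubules at the cell cortex, and KIF2C (MCAK) takes microtubules apart at centromeres. KIF18B read 90.4, 84.8 and 79.9 CPM with shNC and 73.4, 77.0 and 73.5 with the PLEK2 shRNA, and was the only one of the 10 whose groups did not overlap. Among all genes tested, 5.12% had every PLEK2 shRNA library below every shNC library and 4.08% had every one above, as 0 of the 10 kinesins had. The pair ratios of KIF18B were -0.30, -0.14 and -0.12, and its fitted log2 difference was -0.19. KIF18A read 25.8, 17.1 and 17.1 CPM with shNC and 27.7, 17.8 and 15.4 with the PLEK2 shRNA, so that replicate 1 was again the highest in both groups. KIF2C read 137.1, 126.1 and 117.8 CPM with shNC and 117.3, 127.7 and 119.7 with the PLEK2 shRNA, and only its first pair had a ratio (-0.22) away from 0. KIF2C, KIF20A, KIF23 and KIF4A share 137, 74, 128 and 77 exonic bases with genes on the opposite strand, and use of strand in the counting was not given in the sources used here.

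Of the motors of the midzone and cytokinesis other than KIF14, KIF20A came nearest to it in direction and KIF20B was farthest from it. KIF20A (MKLP2) carries the chromosomal passenger complex to the midzone. KIF20A read 89.7, 72.5 and 63.4 CPM with shNC and 78.1, 65.9 and 59.5 with the PLEK2 shRNA, with pair ratios of -0.20, -0.14 and -0.09. Its groups overlapped, and without shNC replicate 1 its fitted log2 difference moved from -0.15 to 0.01. KIF20B (MPP1), a motor of late cytokinesis, read 43.9, 27.2 and 24.4 CPM with shNC and 61.1, 26.02 and 19.99 with the PLEK2 shRNA. The pairs of KIF20B disagreed beyond counting error, with 0.48 (95% counting interval 0.34 to 0.62) in pair 1 and -0.29 (-0.51 to -0.07) in pair 3.

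KIF23 (MKLP1) forms the centralspindlin complex with RACGAP1, and KIF4A, a chromokinesin, sets the length of the midzone overlap together with PRC1. KIF23 read 122.6, 83.6 and 72.5 CPM with shNC and 111.7, 94.0 and 78.1 with the PLEK2 shRNA, a lower value in pair 1 and higher values in pairs 2 and 3. KIF4A read 132.1, 120.3 and 100.9 CPM with shNC and 99.2, 113.5 and 104.5 with the PLEK2 shRNA, so that its lower value rested on pair 1 (-0.41), with -0.08 and 0.05 in pairs 2 and 3. KIF4B, a near copy of KIF4A whose reads cannot be parted from it with certainty, held 9 counts over the 6 libraries against 10056 for KIF4A.

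**Figure D2:**
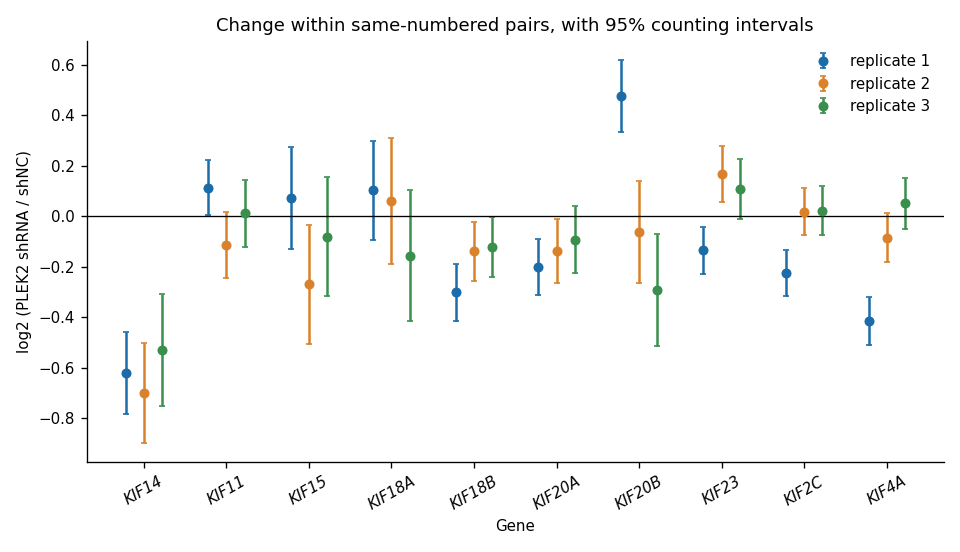
log2 ratio of PLEK2 shRNA to shNC for each mitotic kinesin within pairs of the same replicate number (points), with 95% counting intervals (bars). All 3 points of KIF14 lie between -0.70 and -0.53, while those of KIF20B run from 0.48 to -0.29.

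Counted over the 10 genes, 3 (KIF14, KIF18B and KIF20A) were lower with the PLEK2 shRNA in all 3 pairs and 0 were higher in all 3. Among all genes tested these shares were 21.1% and 19.9%. The median fitted log2 difference was -0.07 over the 10 kinesins and -0.002 over all genes. Leaving out shNC replicate 1 turned the kinesins' median to 0.01, and leaving out PLEK2 shRNA replicate 1 moved it to -0.23. KIF14, KIF18B and KIF4A were below 0 in each of the fits listed in the closing section, and the other 7 changed sign in at least 1 of them.

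Without the block, edgeR's quasi-likelihood test called 0 of the 10 kinesins and 0 of all 12959 genes at an adjusted p under 0.05, the background being 0%. At an unadjusted p under 0.05 it marked 2 of the 10 kinesins and 400 genes (3.09%), and DESeq2's Wald test called 2 genes higher and 10 lower. With the replicate number as a block, 3 of the 10 were lower at an unadjusted p under 0.05, as were 10.4% of all genes, and 1 of the 10 was called, KIF14, beside a background of 0.849% (110 genes, 94 of them lower, 0.725%). KIF14 was chosen on this contrast, so nothing is read from that count, and it was 0 of 10 when replicate 2 was left out of both groups or when DESeq2 was used with the block.

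The steepest variation of most of these kinesins ran across replicate numbers and not across the shRNAs. In 10 of 10, replicate 1 lay above the mean of replicates 2 and 3 when both groups were averaged, as it did in 48.1% of all genes. This excess was 1.09 on the log2 scale for KIF20B, 0.67 for KIF18A, 0.66 for KIF14, 0.52 for KIF23, 0.49 for KIF11, 0.36 for KIF20A and 0.35 for KIF15. KIF4A, KIF18B and KIF2C stood apart from these with 0.06, 0.05 and 0.05, and in each of them PLEK2 shRNA 1 was the lowest library of its group.

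The replicate number was tested for each gene in a fit that also held the shRNA. Differences between replicate numbers were not what the genes were chosen on. The error term, though, is the disagreement between pairs, on which KIF14 was picked, so no p is given for KIF14. Agreement between pairs was in view for the other 9 genes too, so their calls and p-values are a description and not an independent test. KIF14 is left out of the count too. Of the other 9 kinesins, edgeR's quasi-likelihood F test called 6 at an adjusted p under 0.05, each with replicate 1 on top, against 28.4% of all genes in either direction and 15.6% with replicate 1 on top. The adjusted p was 0.000186 for KIF20B, 0.000512 for KIF23, 0.000742 for KIF11, 0.000846 for KIF18A, 0.00186 for KIF20A and 0.0334 for KIF15. KIF4A, KIF2C and KIF18B did not pass, with an adjusted p of 0.253, 0.502 and 0.575. What the replicate number stands for, a culture, a day or a preparation, was not given in the sources used here. The same pattern was seen among other G2/M genes, 12 of 18 of which were called for the replicate number with replicate 1 on top.

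**Figure D3:**
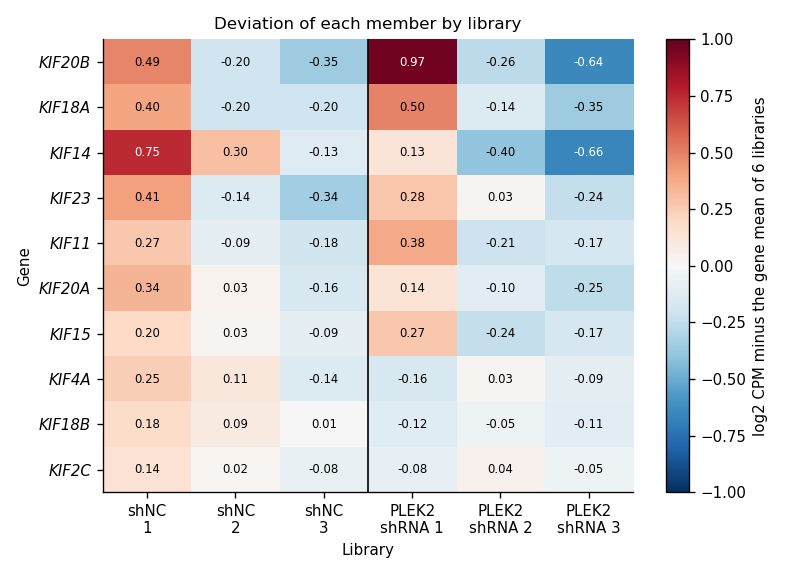
log2 CPM of each mitotic kinesin minus its own mean over the 6 libraries (colour and printed values), with genes ordered by the excess of replicate 1 and a line between the groups. The replicate 1 columns are above the gene mean from KIF20B down to KIF15, and in KIF14, KIF20A and KIF18B each PLEK2 shRNA value is below the shNC value of its number.

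Levels can be compared between genes only per transcript length, for which FPKM, a level scaled to transcript length and library total, was used. With shNC, KIF2C was highest at 46.2 ± 3.25 FPKM (SD, n = 3), followed by KIF23, KIF4A, KIF20A and KIF18B with means between 30.6 and 21.1. KIF11 followed at 14.04 ± 2.34, and KIF18A, KIF14, KIF15 and KIF20B lay lowest, with means between 6.21 and 5.06 FPKM. Neighbours in this order whose libraries did not overlap were KIF2C and KIF23, KIF18B and KIF11, and KIF11 and KIF18A. The ranges of the other neighbours overlapped, although KIF23 lay above KIF4A, KIF4A above KIF20A and KIF18A above KIF14 within each of the 3 shNC libraries.

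With the PLEK2 shRNA the first 7 places were held by the same genes in the same order. KIF14 moved from place 8 at 5.37 ± 1.47 FPKM to place 10 at 3.55 ± 1.05, behind KIF20B (5.82 ± 3.67) and KIF15 (4.99 ± 1.15). KIF15 lay above KIF14 within each of the 3 PLEK2 shRNA libraries, although the ranges of the pair overlapped. Here the neighbours without overlap were KIF2C (45.2 ± 1.54 FPKM) and KIF23, KIF23 and KIF4A, and KIF11 and KIF18A.

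**Figure D4:**
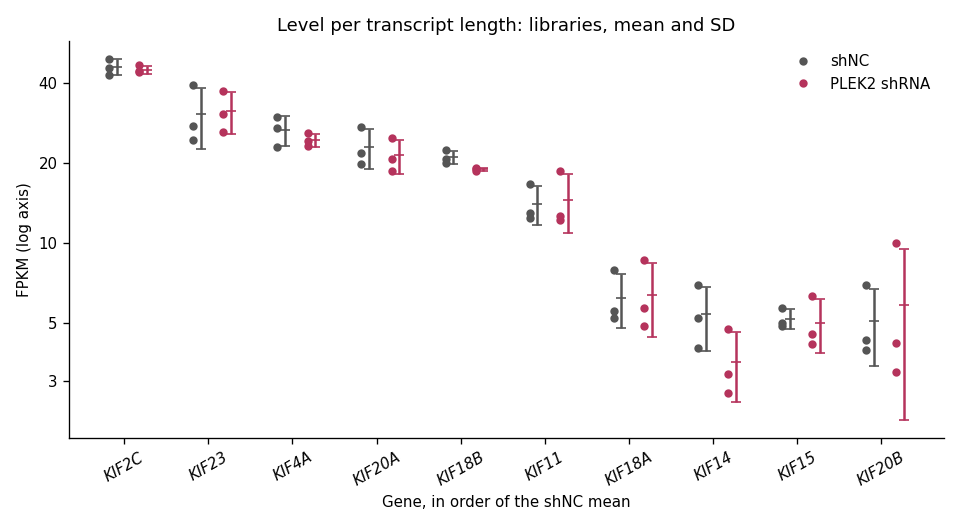
FPKM of the mitotic kinesins on a log axis, ordered by the shNC mean, with points for libraries and bars for mean and SD (n = 3 each). KIF2C is highest in both groups (46.2 and 45.2), and KIF14 has means of 5.37 and 3.55, the second being the lowest of the 10 with the PLEK2 shRNA.

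Other kinesins with a part in mitosis were measured as KIFC1, KIF2A, KIF22 and CENPE. None of these 4 was called in either fit. KIFC1, a minus end motor that bundles spindle microtubules, had a log2 difference of -0.18 with the block (edgeR, adjusted p = 0.1997). KIF2A, a depolymerase at the poles, had 0.15 (adjusted p = 0.211), and KIF22, a chromokinesin, had -0.13 (adjusted p = 0.289). KIF4B was too low to test, and KIF2B was not found among the genes of the deposited data.

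Tested kinesins and light chains known mainly for transport, cilia and other work outside mitosis numbered 29. Of these, 2 were called lower with the PLEK2 shRNA under the block and 0 higher. Among all 12959 genes tested, 94 (0.725%) were called lower and 16 higher. Without the block, 0 of the 29 were called. KIFC2 read 80.7 ± 13.9 CPM with shNC and 62.7 ± 5.71 with the PLEK2 shRNA (SD, n = 3 each). Its pair ratios were -0.21, -0.41 and -0.45, and its log2 difference was -0.36 (SE 0.06, edgeR with the block, adjusted p = 0.0249). KIF21A, which slows the growth of microtubules at the cortex, read 61.6 ± 1.66 and 48.9 ± 2.98 CPM. Its pair ratios were -0.40, -0.24 and -0.36, for a log2 difference of -0.33 (SE 0.06, adjusted p = 0.0283). Both calls were lost when replicate 2 was left out of both groups (edgeR, adjusted p = 0.298 and 0.224). The pairs of KIF21A agreed like those of KIF14, but it did not share the excess of replicate 1. At an unadjusted p under 0.05 with the block, 5 of the 29 were lower and 0 higher. Among all 12959 genes tested, 1354 (10.4%) were lower and 1023 higher at that threshold. The median log2 difference over the 29 was -0.02 in the fit without the block.

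Of 23 partners that bind, recruit or phosphorylate mitotic kinesins, PLK1 was the one gene called under the block, against 0.849% of all genes. PLK1, a kinase of mitotic entry and of the midzone, read 242 ± 13.7 CPM with shNC and 180 ± 29.5 with the PLEK2 shRNA. Its pair ratios were -0.76, -0.24 and -0.32, and its log2 difference was -0.44 (SE 0.08, edgeR with the block, adjusted p = 0.0283). The call was lost when replicate 2 was left out of both groups (edgeR, adjusted p = 0.106). The proteins that hold KIF14 at the midzone, named here after their values were seen, were not called: PRC1 had -0.17 (adjusted p = 0.194) and citron kinase, CIT, had -0.21 (adjusted p = 0.127). Both were lower in all 3 pairs, with groups that did not overlap, and the difference was largest in pair 1. The pair ratios were -0.38, -0.08 and -0.05 for PRC1 and -0.39, -0.17 and -0.08 for CIT. In the whole list of 23, 6 were lower in all 3 pairs and 5 were higher in all 3. Among all genes tested these shares were 21.1% and 19.9%. Of the 23 partners, 5 lay below without overlap and 0 above, against 5.12% and 4.08% of all genes, and 8 were lower at an unadjusted p under 0.05 with the block, against 10.4% of all genes. The median over the 23 partners was -0.04 in the fit without the block, with medians of -0.21, 0.01 and 0.04 in pairs 1, 2 and 3.

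Of 18 other genes of G2 and mitosis, 0 were called for the shRNA in either fit. The smallest p-values of the blocked fit belonged to CDC20, an activator of the anaphase-promoting complex, with a log2 difference of -0.18 (edgeR, adjusted p = 0.156), to the proliferation antigen MKI67 with -0.23 (adjusted p = 0.172), and to CENPF, a kinetochore protein, with -0.28 (adjusted p = 0.185). Of 12 regulators of such promoters, 0 were called. LIN9 and LIN54, parts of the MuvB core, had 0.28 and 0.23 (adjusted p = 0.143 and 0.177), and MYBL2, which encodes B-MYB, had -0.18 (adjusted p = 0.160). At an unadjusted p under 0.05 with the block, 3 of the 18 were lower and 0 higher. Of the 12 regulators, 1 was lower and 2 higher. Among all 12959 genes tested, 1354 (10.4%) were lower and 1023 higher at that threshold. The median log2 differences of these lists were -0.01 and 0.01 in the fit without the block. A p above the threshold does not show that a gene did not differ.

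**Figure D5:**
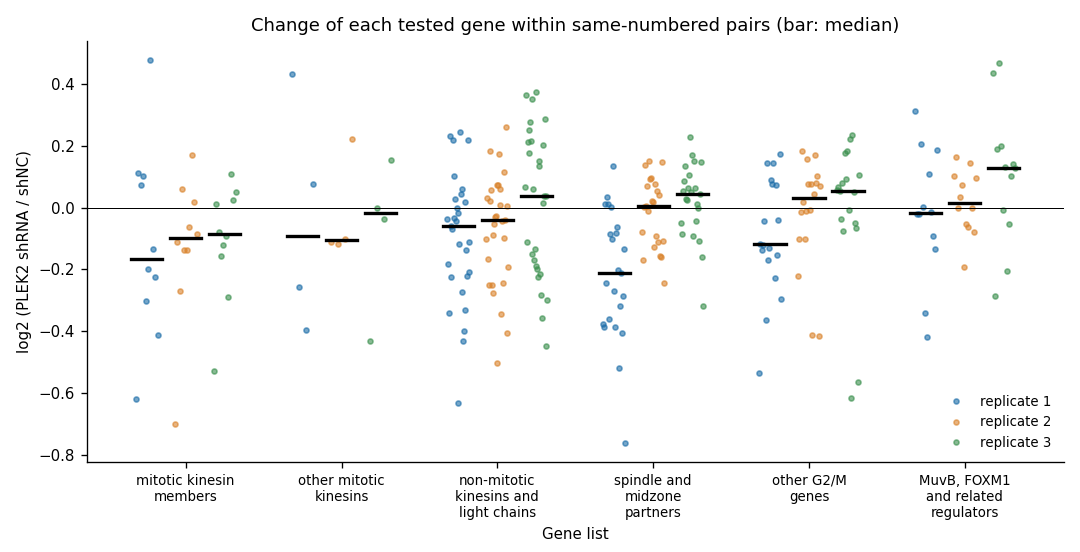
log2 ratio of PLEK2 shRNA to shNC for each tested gene of 6 lists, by replicate number (colours), with the list median as a bar. The pair 1 median is -0.17 for the mitotic kinesins and -0.21 for the spindle partners, and the medians of pairs 2 and 3 lie between -0.11 and 0.13 in all 6 lists.

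The genes whose log2 CPM over the 6 libraries was most like that of KIF14, among 10159 genes with a mean log2 CPM over 3, were MACC1 (Pearson's r = 0.993), ING1 (0.977), AURKB (0.972), TUBB2A (0.967) and NUTF2 (0.967). MACC1 read 16.6, 12.6 and 9.83 CPM with shNC and 12.02, 8.87 and 8.14 with the PLEK2 shRNA, so it shared both the decline across replicate numbers and the lower value in each pair. Of the kinesins, KIF20A came nearest at 0.929, in place 28, and KIF2C was farthest at 0.598. Among the 10 kinesins, r over the same 6 libraries ranged from 0.08 to 0.98 over 45 pairs of genes, with a median of 0.675. These r values describe 6 libraries that share replicate numbers and depth, and they carry no test.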

How the data were processed

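Poly(A) RNA of HCT116 cells was sequenced as single-end reads of 50 bases in 6 libraries, grouped by the submitters' treatment label and numbered by their titles. The authors deposited RSEM estimated counts per gene, without normalization, and values under a header that names no unit. These deposited values were read as FPKM, since the lengths they imply for the 10 kinesins came to between 80.4% and 105.7% of the annotated transcripts. The submitters' processing notes name HISAT2 2.0.4, Bowtie2 2.2.5, RSEM 1.2.12, DESeq2 1.4.5 and the mouse build GRCm38.p6, although the table holds human genes. Deposited group means were not used.

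Counts were rounded, filtered with filterByExpr, scaled by TMM (factors 0.984 to 1.02) and compared with edgeR 4.0.16 in R 4.3.3, without a block, with Benjamini-Hochberg adjustment at 0.05 over all genes tested. CPM values are TMM-scaled. The script was tested on simulated data. Same-numbered libraries deviated together (r = 0.741, 0.568 and 0.572 over 10160 genes, against -0.630 to 0.374 otherwise), so the fit with the replicate block is given wherever it changes a call. That pairing comes from the data and the shared numbers, not from a stated batch. DESeq2 1.42.0 and limma 3.58.1 (log2(FPKM + 1)) were alternatives, with other scalings, no filter and left-out libraries. Leaving a replicate number out of both groups, and totals or DESeq2 with the block, were chosen after seeing the data. KIFBP was found under an older symbol by its gene number.

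The kinesins and gene lists were chosen with earlier results of these data known. Named were all 10, PLEK2, KIF4B, the 5 genes most like KIF14, and of each list the genes called in either fit or, where none was, the 3 with the smallest p in the blocked fit.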

Additional observations from a re-analysis of the deposited data

How the results depend on the processing

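KIF14 stayed below 0 in all 17 alternatives to the fit reported, at -0.485 by limma-trend on log2(FPKM + 1) and from -0.8735 to -0.3587 with 1 library left out. The median of the 10 kinesins ran from -0.2277 to 0.01325 with 1 library left out, reversing without shNC replicate 1, where KIF20A and CENPF reversed too. With 1 library left out KIF20A ran from -0.2625 to 0.01071 and CENPF, which also reversed without PLEK2 shRNA replicate 3, from -0.6922 to 0.05768. The count of kinesins called was 0 without the replicate block, and 1 with it, with it and library totals, and with it when replicate 1 or 3 was left out of both groups. Non-mitotic kinesins called were 2 under those same settings and 1 by DESeq2 with the block. Spindle partners called were 1 with the block, alone, with library totals, with DESeq2 or without replicate 1, and 3 without replicate 3. With the block, other G2/M genes called were 2 without replicate 1 and 1 without replicate 3, and regulators called were 1 without replicate 3. The cause was not tested. Without KIF14, calls for the replicate number numbered 6 of 9 kinesins, also with DESeq2's size factors, library totals or no filter, and 5 by DESeq2's likelihood ratio test. Over all genes, the block called 16 higher and 94 lower, moving to 179 and 349 without replicate 1, 2 and 16 without replicate 2, 74 and 223 without replicate 3, 83 and 109 with library totals, and 7 and 50 with DESeq2. Library totals moved the median of all genes to 0.0291. Over these alternatives the 9 kinesins other than KIF14 had the opposite sign in 21 of 153 values, and the 13 other named genes in 2 of 219, with a call gained in 25 of the 219. The depth behind KIF14 was 282 to 758 counts a library, in 3 libraries a group.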

Other observations

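KIF20B shared its uneven pair pattern with 3 other long transcripts of mitosis, picked after their values were seen. Its log2 ratios of PLEK2 shRNA to shNC in pairs 1, 2 and 3 were 0.48, -0.06 and -0.29. CENPE, a kinesin of the kinetochore, had 0.43, -0.11 and -0.43, CENPF had 0.14, -0.41 and -0.62, and ASPM, a spindle pole protein, had 0.17, -0.41 and -0.56. All 4 were higher in replicate 1 of either group. Their annotated transcripts are 6441, 8541, 10290 and 10863 bases long, against a median of 3375 over the genes tested. MKI67, at 12716 bases, had -0.54, -0.22 and 0.06, the opposite order. KIF14, at 7291 bases, had pairs within 0.17 of each other, but it was picked for that agreement, so nothing is read from this. The part of transcript length in these values was not tested.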
